A study of Mus musculus with 384 samples.

Results

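Cd9 and Cd53, the 2 tetraspanin assays on a panel of 96, were followed in single common lymphoid progenitors (CLPs) by quantitative PCR. They were chosen by name, and each matched 1 row of the panel. Cd9 was detected in 29.1% of cells and Cd53 in 98.3%. The level of Cd53 went with that of the transcription factor gene Spi1, at the highest correlation of any pair of commonly detected genes on the panel. No pairing of Cd9 with a stem, myeloid or B lineage gene passed the test.

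Tetraspanins are small proteins that cross the membrane repeatedly and assemble with integrins, immunoglobulin superfamily proteins and each other into membrane microdomains. CD9 is found on platelets, megakaryocytes, many stem and progenitor cells and subsets of B cells, where it associates with integrins and is involved in adhesion, migration and membrane fusion. CD53 is restricted to leukocytes and is present on most of them, and it is known in the B lineage for its association with the interleukin 7 receptor.

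The cells came from bone marrow of wild-type C57/Bl6 mice and were sorted as Lin- B220- Flt3+ Il7r+ Kitlow Sca1low. No group carried a mutation or treatment, and the number and age of the mice, and any pooling of their cells, were not stated in the labels. The 384 wells lay on 4 plates, P0 to P3, each holding 90 single-cell wells, 4 control wells without reverse transcriptase (no-RT) and a well each of 10 and of 20 cells. Quality control left 86 single cells on P0 and 87 on each other plate; they had a product for 22 to 54 assays (median 43), against a median of 6.5 in the no-RT wells. Of the surface markers of the sort, Kit was the one with a matched assay, and it had a product in 97.4% of the kept cells. A value is a cycle of threshold crossing (Ct): a lower Ct means more cDNA, a Ct below 28 counted as a product, and 40 stands for none. The plate was the replicate (n = 4), and because no label ties the plates to separate animals, p-values measure plate-to-plate spread that may be technical. In 4 kept wells (P0 wells 1, 2 and 24, and P1 well 1) the reference genes came up 7.81, 12.7, 6.08 and 10.5 cycles after the median of the plate; the largest lag among the other cells was 3.23 cycles, and results are also given without these late wells where they matter.

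The sequences before the starts of both genes are shown because they differ in composition and because the Spi1 protein, PU.1, binds purine-rich sites with a GGAA core. Both are RefSeq sequences of the build GRCm38.p6, of 250 bases up to the annotated start, on the minus strand: Cd9 at chr6:125494761-125495010 and Cd53 at chr3:106790150-106790399. Capitals mark GGAA and GGGCGG, searched on both strands (TTCC and CCGCCC on the other).
Cd9: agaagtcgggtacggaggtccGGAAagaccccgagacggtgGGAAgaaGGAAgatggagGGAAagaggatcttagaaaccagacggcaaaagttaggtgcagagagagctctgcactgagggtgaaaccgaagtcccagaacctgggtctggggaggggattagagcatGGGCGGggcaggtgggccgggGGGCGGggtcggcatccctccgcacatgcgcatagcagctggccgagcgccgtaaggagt
Cd53: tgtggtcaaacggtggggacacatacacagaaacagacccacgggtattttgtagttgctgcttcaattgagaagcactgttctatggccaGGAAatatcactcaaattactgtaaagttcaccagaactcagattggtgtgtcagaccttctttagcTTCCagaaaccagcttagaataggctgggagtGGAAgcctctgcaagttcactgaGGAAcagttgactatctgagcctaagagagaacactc
The Cd9 window was the richer in C and G, with a GC content of 61.6% and 16 CpG dinucleotides, against 45.2% and 2 for Cd53; the medians of 32851 promoter windows of this length were 52.4% and 6. GGAA occurred 4 times in each, a motif present in 93.4% of the windows. GGGCGG, the core of GC boxes, occurred 2 times in Cd9 and 0 times in Cd53, and in 32.7% of the windows. The longer PU.1 core GAGGAAGT was then searched on both strands in windows of 300 bases that take in 50 bases after the start, a search chosen after the levels of Cd53 and Spi1 had been seen. It was found 1 time in Cd53, on the opposite strand, its first base 7 bases into the transcript. The 24 bases around it, at chr3:106790128-106790151, are printed next (capitals mark the motif).
Cd53 start: tcagtctcACTTCCTCactcttct
This motif lies in 3.20% of the 32851 windows and was not in that of Cd9. A match in the letters is a description and shows no binding.

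Cd9 was detected in 32.6% of kept cells on P0 (28 of 86), 26.4% on P1 (23 of 87), 32.2% on P2 (28 of 87) and 25.3% on P3 (22 of 87). The mean share was 29.1% ± 3.79 (SD, n = 4 plates), with exact 95% binomial intervals that ran from 16.6% to 43.5% over the plates and overlapped on all of them. Cd53 was detected in 95.3% (82 of 86), 100% (87 of 87), 98.9% (86 of 87) and 98.9% (86 of 87), a mean of 98.3% ± 2.02. Every plate thus had Cd53 in over 95% of its cells and Cd9 in under 33%, and the shares of both genes did not overlap on any plate. By share, Cd53 was the 14th and Cd9 the 51st of the 96 assays.

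Neither gene gave a product in a no-RT well (0 of 16 each, exact 95% upper limit 20.6%). The share in cells was above that in no-RT wells for both (limma on arcsine values, adjusted p = 6.36e-08 for Cd9 and 1.85e-08 for Cd53, 4 plates against 4), as for 84.1% of the 88 assays tested. These intervals cover counting error alone.

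A total of 99 cells had a product for both genes, 2 for Cd9 alone and 4 for neither, and all others had Cd53 alone. The 6 cells without Cd53 were P0 wells 2, 9, 19 and 41, P2 well 49 and P3 well 16, and they had products for 24 to 45 assays. Cd9 was present in 2 of them, at a Ct of 14.25 in P0 well 19 and of 26.3 in the late P0 well 2. Most of them were thus on P0, and none on P1.

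Among cells with a product, the median Ct of Cd9 was 14.92 on P0, 14.92 on P1, 15.80 on P2 and 15.69 on P3. That of Cd53 was 15.34, 15.80, 15.68 and 15.90. Assays differ in efficiency, so these Ct values do not rank the genes against each other. They show instead that Cd9, where detected, came up at a cycle far below the threshold of 28 and not at its edge. Its highest Ct was 18.54 outside the late wells (26.3 with them) and the lowest 11.97. No value of either gene lay between 28 and 40, so the division of cells into those with and without Cd9 did not turn on the threshold. The Ct of Cd53 ran from 12.34 to 22.0 outside the late wells and to 27.0 with them.

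**Figure D1:**
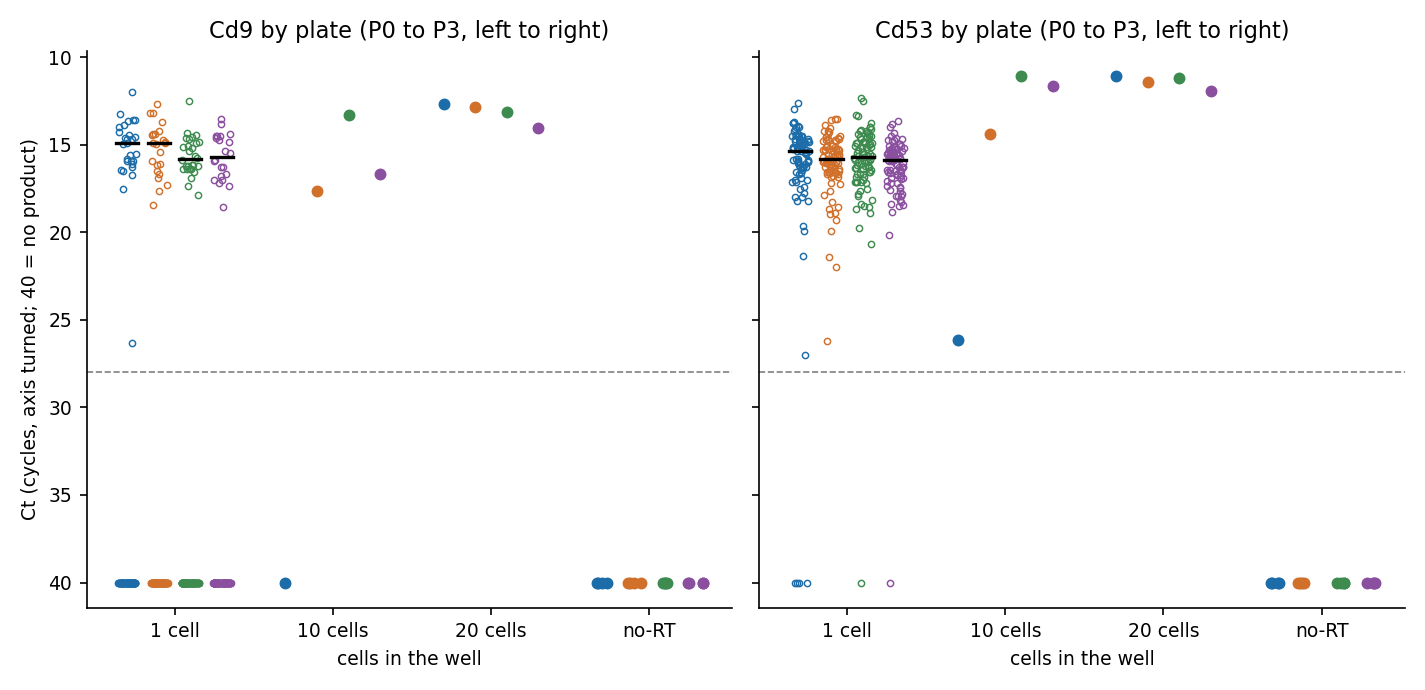
Ct of Cd9 (left) and Cd53 (right) in each kept single-cell well, each well of 10 or 20 cells and each no-RT well, coloured by plate; the vertical axis is turned so that more cDNA is higher, the dashed line is the threshold of 28 and bars are medians of cells with a product. Cd9 points split between a cloud near Ct 15 and the value 40, while nearly all Cd53 points lie in the upper cloud and both genes are at 40 in all 16 no-RT wells.

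Wells of known cell number showed both genes again. The 20-cell wells gave Cd9 at Ct 12.66, 12.84, 13.13 and 14.04 on P0 to P3, and Cd53 at 11.09, 11.41, 11.18 and 11.94. The 10-cell wells gave Cd9 at no product, 17.65, 13.29 and 16.67, and Cd53 at 26.16, 14.40, 11.08 and 11.67. The 10-cell well of P0 stood apart, with 29 assays against 68 to 71 in the others and Atp5a1, a reference gene, at 23.7 against 6.88 to 9.78. From the single-cell shares, 94.6% to 98.1% of wells of 10 random cells would hold a cell with Cd9, and 3 of the 4 had a product.

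The level (28 minus Ct) of Cd9 was 2.70 cycles higher with 20 than with 10 cells (95% interval -0.14 to 5.54, limma adjusted p = 0.358) and that of Cd53 4.42 cycles higher (-3.04 to 11.9, adjusted p = 0.358). Centred on the reference genes of the well, the differences were 1.57 for Cd9 (adjusted p = 0.445) and -0.55 for Cd53 (adjusted p = 0.797), whose direction turned. Without the 10-cell well of P0 the Cd53 difference was 0.98 cycles (adjusted p = 0.340), while that of Cd9, which had no product there, stayed at 2.70 (0.59 to 4.82, adjusted p = 0.202). Of the 59 assays tested, 0 passed with all wells (0% called, 4 at an unadjusted p under 0.05) and 1 passed without that well. Set against 10 times the mean single cell of the same plate, the 10-cell wells held less Cd9 by a difference of -2.53 cycles (-5.25 to 0.18, adjusted p = 0.517) and Cd53 by -3.77 (-11.3 to 3.76, adjusted p = 0.517). The Cd53 difference was -0.33 cycles without the P0 well and 0.49 centred on the reference genes. That of Cd9 stayed at -2.53 without the P0 well (-4.58 to -0.48, limma adjusted p = 0.409). Centred, it was -2.11 (-3.43 to -0.79, adjusted p = 0.130). On P1 and P3 the 10-cell Ct of Cd9, 17.65 and 16.67, was later than the median of positive single cells, 14.92 and 15.69. With all wells and no centring, 0 of 61 assays were called (0%, 2 at an unadjusted p under 0.05).

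To compare cells, the level of a gene was taken relative to the mean level of the detected reference genes of the same cell, so that a relative level of -3 means 3 cycles less than that mean. The relative level of Cd53 in cells with a product was -3.28 on P0, -3.34 on P1, -3.03 on P2 and -3.18 on P3. Its SD over cells was 1.35, 1.61, 1.39 and 1.13 cycles, a mean of 1.37 ± 0.19 over plates. Among the 18 assays detected in over 95% of cells, this was the largest mean SD, and Cd53 ranked 2, 1, 1 and 3 on P0 to P3. Itga4, an integrin subunit gene, stood at 1.27 and Kit, the stem cell factor receptor gene, at 1.17, while Spi1 stood at 1.03 and Atp5a1, which was among the genes used for centring, at 0.49. Without the late wells the mean SD of Cd53 was 1.36, and its rank among the 18 was 2. Cd53 was thus detected almost everywhere but at levels that differed between cells as much as those of any common gene on the panel.

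The relative level of Cd9 in its positive cells was -2.84, -2.66, -2.84 and -2.99 on P0 to P3, with an SD over cells of 1.48, 1.20, 1.01 and 1.28 cycles. In the 99 cells with both genes, the levels of Cd9 and Cd53 had a mean Spearman correlation of 0.076 within plates, and the plates ran from -0.351 to 0.349.

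The gene whose level was most like that of Cd53 was Spi1, which encodes PU.1, a transcription factor of myeloid and B lineage development. Within plates the Spearman correlation of the relative levels was 0.67 on P0, 0.82 on P1, 0.83 on P2 and 0.70 on P3 (mean 0.753 ± 0.079, over 82 to 87 cells with both on each plate). The next genes were H2-K1, a class I histocompatibility gene, at 0.409, CD45RA at 0.340, Kit at 0.328 and Cd180, a B cell surface receptor gene, at 0.313; the median over the 39 genes in more than 50% of cells was 0.189. Of the 780 pairs among the 40 genes in over 50% of cells, Cd53 with Spi1 had the highest mean correlation. The second pair, Ebf1 with FOX01, reached 0.616, and the median pair 0.183. These correlations are across cells of the same plates, whose points share the plate, the depth of the cell's cDNA and the reference genes subtracted from both values.

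The pair was also first of the 780 without centring on the reference genes (mean 0.805, median pair 0.254), with the median of the 18 most common assays as the reference (0.735, median pair 0.074) and without the late wells (0.765). In the 99 cells with Cd9 the correlation was 0.808 ± 0.094, and in the cells without it 0.731 ± 0.111. It was 0.751 in cells with Bst2 and 0.635 in the 58 cells without. Over the classes of B gene detection described further on, its mean ran from 0.661 to 0.720.

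In units of cycles, the 25% of cells lowest in Spi1 had a mean relative Cd53 level of -4.54 on P0, -5.32 on P1, -4.56 on P2 and -4.23 on P3. The 25% highest in Spi1 had -2.06, -2.06, -1.61 and -2.09. The difference was 2.71 ± 0.50 cycles (n = 4 plates), every plate showing it between 2.14 and 3.26, and the plate means of both ends did not overlap. The same cells were split by Spi1 after the correlation had been seen, so this restates it in cycles and is no separate support. Within plates the fitted slope was 1.00 ± 0.12 cycles of Cd53 per cycle of Spi1, and the Ct of Cd53 minus that of Spi1 had an SD over cells of 0.89 ± 0.11 cycles. Spi1 gave no product in 16 no-RT wells, as Cd53 did. All 4 kept cells without Spi1 also lacked Cd53, and 2 of the 6 cells without Cd53 had Spi1. In the 20-cell wells the Ct of Cd53 minus that of Spi1 was 0.39, 0.30, -0.08 and 0.49 on P0 to P3, and in the 10-cell wells -0.30, 0.96, -0.13 and 0.21, so the genes moved together also in the P0 well that came up late (Spi1 at 26.45).

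**Figure D2:**
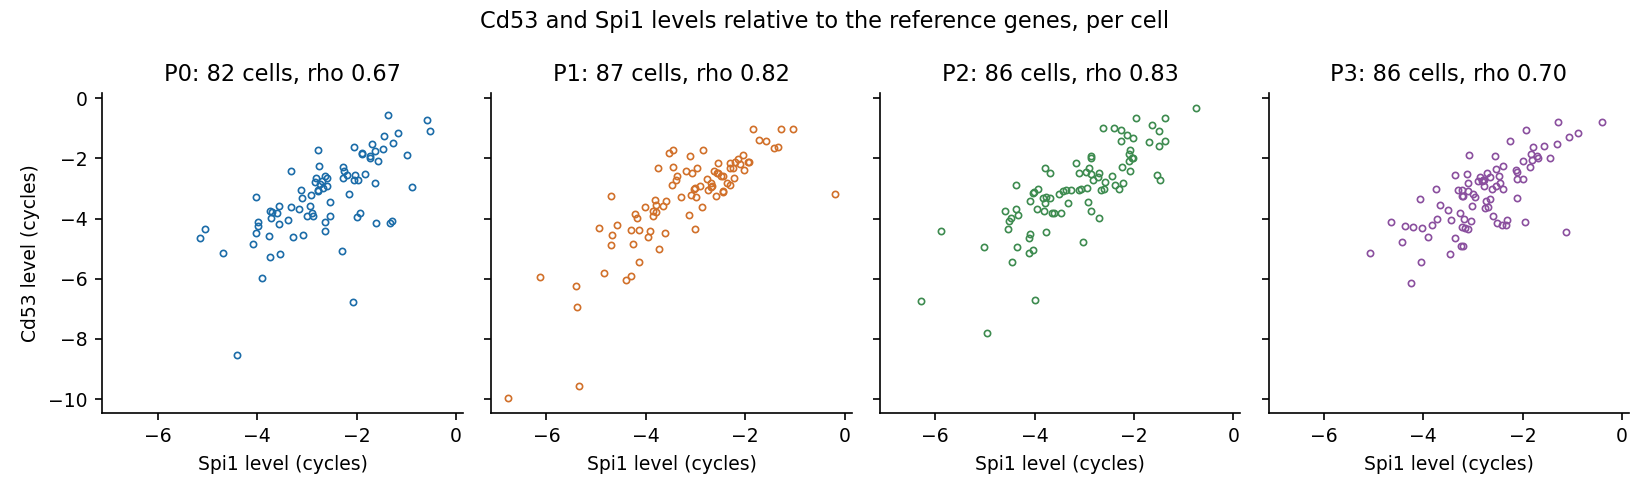
Relative level of Cd53 against that of Spi1 in each kept cell with both, 1 panel a plate, in cycles against the mean of the reference genes (higher means more cDNA). The clouds rise on all 4 plates, with Spearman correlations of 0.67 to 0.83 over 82 to 87 cells a plate.

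Cd9 was then set against the genes of other lineages by co-detection, as the log2 odds ratio of finding both genes in a cell within a plate (above 0: more often together than their shares give). The panel's 49 genes in 5% to 95% of cells, with a product in fewer than 4 no-RT wells, gave 1176 pairs, of which 54 were called (4.59%: 2.98% above and 1.62% below 0). Of the 48 pairs with Cd9, 0 were called by limma at an adjusted p of 0.05, and 0 had an unadjusted p under 0.05. Cd9 was 1 of 23 genes without a called pair. Of 12 genes detected in 20% to 40% of cells, 7 had none, so the share of Cd9 did not set it apart in this.

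The stem and multipotent list had 4 members that entered, of 5 on the panel. Zfp521, a zinc finger gene of stem cells and early progenitors, had log2 odds ratios of -0.22, -0.12, -1.60 and -1.91 on P0 to P3, below 0 on every plate. Its mean was -0.96 (95% interval -1.99 to 0.06, limma adjusted p = 0.331): 25 cells had both genes, where their shares gave 35.0, and Cd9 was in 20.7% ± 8.54 of cells with Zfp521 and in 33.6% ± 4.81 of cells without. Cd34, a surface glycoprotein gene of stem and progenitor cells, had a mean of 0.12 (-1.15 to 1.40), with plates from -1.63 to 2.30. Hoxa9, a homeobox gene of stem cells, had 0.25 (-0.68 to 1.18) and Fli1, an ETS family transcription factor gene, 0.30 (-0.63 to 1.24). Kit was in over 95% of cells and could not enter; 97 cells had Kit and Cd9. The median of the 4 was 0.19, beside 0.17 over all 48 pairs (29 above 0, 19 below).

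Of the 8 myeloid genes on the panel 5 entered, with a median of 0.01 and 3 of 5 above 0. Csf3r, the receptor gene of the granulocyte factor G-CSF, had a log2 odds ratio of 0.37 (-0.57 to 1.31), and Gfi1, a transcriptional repressor of granulocyte and lymphoid development, 0.36 (-0.66 to 1.37). Il6ra, an interleukin 6 receptor subunit gene, had 0.01 (-0.97 to 0.99), Klf4, a monocyte transcription factor gene, -0.02 (-0.96 to 0.92) and Csf1r, the receptor gene of the macrophage factor M-CSF, -0.09 (-1.16 to 0.97). The intervals of Il6ra, Klf4 and Csf1r reach about 1 on the log2 scale in both directions, and those of Csf3r and Gfi1 do so above 0 alone. Differences in the odds of that size lie within them in those directions. Cebpa and Cd68 gave a product in 7 and 11 no-RT wells and were not entered, nor was Spi1, which was in over 95% of cells.

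The B lymphoid list had 5 members that entered, of 10, with a median of -0.32 and 2 of 5 above 0. Ebf1, the early B cell factor gene, had -0.41 (-1.38 to 0.56), Ly6d, a surface marker gene of B-directed CLPs, -0.35 (-1.32 to 0.62) and Pax5, the B lineage commitment factor gene, -0.32 (-1.36 to 0.72); all 3 had plates on both sides of 0. FOX01, an assay name that matched no current symbol, had 0.05 (-0.86 to 0.95). The assay TCF3E2A, also unmatched, had 1.22, 0.90, 0.86 and 0.51 on P0 to P3. It was above 0 on every plate, with a mean of 0.87 (-0.03 to 1.77, limma adjusted p = 0.310) and 46 cells with both where the shares gave 35.8. Random signs agree on all 4 plates with a probability of 0.125, so this alone does not set TCF3E2A or Zfp521 apart. Bcl11a and Cd24a were in over 95% of cells, and Spib and Lef1 in under 5%, with 1 Cd9 cell each.

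**Figure D3:**
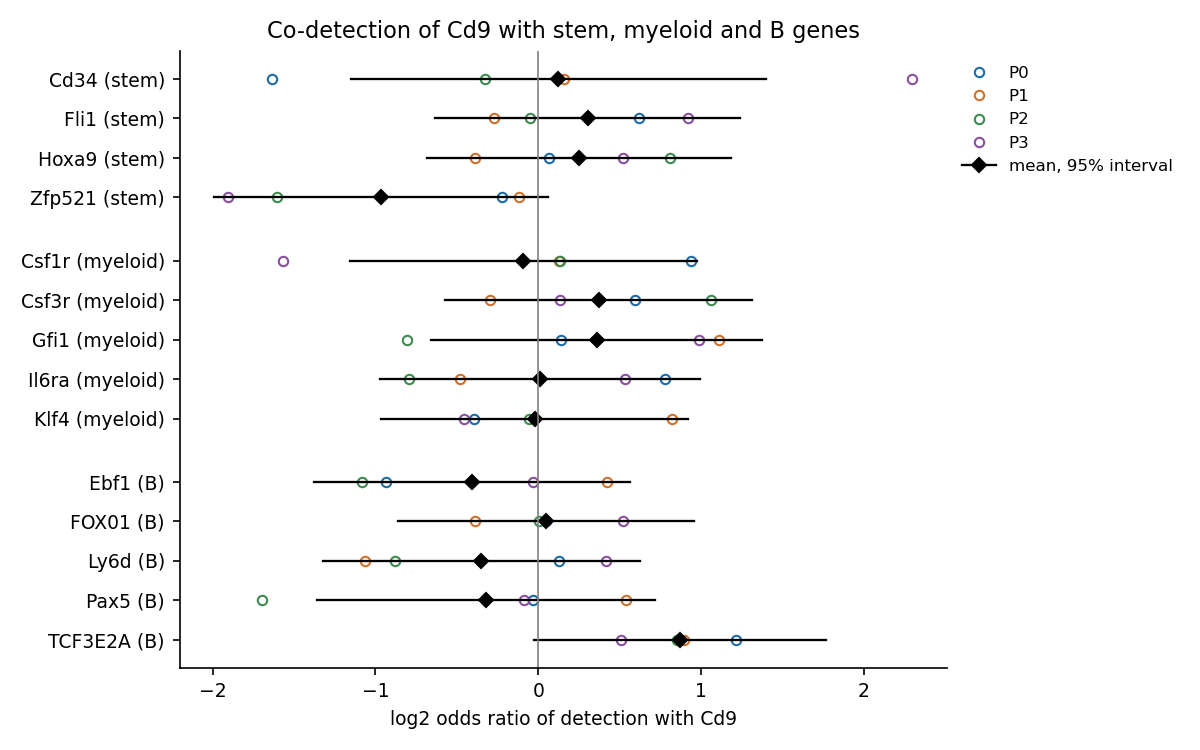
Log2 odds ratios of detecting each stem, myeloid or B gene in the same cell as Cd9; circles are the 4 plates, diamonds the means and lines the 95% limma intervals. The interval of every gene shown spans 0, and Zfp521 (-0.96) and TCF3E2A (0.87) are the genes with all plates on the same side of 0.

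Over the whole panel, the detection pattern most like that of Cd9 was that of SIGLEC.F, by a mean within-plate phi coefficient of 0.149 over all kept cells. It was followed by TCF3E2A (0.136), Cd180 (0.120), CD90.2 (0.112) and Il2rb (0.104), an interleukin 2 receptor subunit gene, against a median of 0.018 over 53 genes. Their log2 odds ratios were 1.11 for SIGLEC.F, 1.39 for Cd180, 0.85 for CD90.2 and 0.90 for Il2rb, of which Il2rb was above 0 on every plate (0.99, 0.47, 0.86 and 1.29; adjusted p = 0.294). Cd180 ran from -0.78 to 4.55 over the plates. Among all pairs with Cd9, Cd244a and Ly86 were also below 0 on every plate, and Tnfsf8 was also above 0. The median was 0.64 over the 4 T lymphoid genes that entered (Cd5, Cd4, Gata3 and CD90.2) and -0.18 over the 5 dendritic genes, and none of these pairs was called. Of the tetraspanin partners, Itgb7, Cd4 and Itgax entered, with values from -0.18 to 0.61.

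Cells with Cd9 had a product for 42.7 ± 0.41 other assays and cells without it for 42.0 ± 0.48 (difference 0.72, -0.57 to 2.01, limma adjusted p = 0.465), where 18.8% of the 48 genes tested were called higher. Their reference genes stood at a level of 15.3 and 15.1 cycles (difference 0.18, -0.22 to 0.57, adjusted p = 0.577; 14.6% called higher). The intervals of both differences span 0.

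The levels of 51 other genes were also set against the detection of Cd9, and 0 differences were called, 3 with an unadjusted p under 0.05. Over all 2068 contrasts of a level with the detection of another gene, limma called 63 (3.05%: 1.74% higher and 1.31% lower). Csf3r, in cells that had it, was lower in cells with Cd9 on all plates, by differences of -0.35, -0.84, -0.46 and -0.94 cycles (mean -0.65, -1.02 to -0.28, adjusted p = 0.0955). Fli1 was higher on all plates, by 0.92, 0.02, 0.94 and 0.74 cycles (mean 0.65, 0.19 to 1.12, adjusted p = 0.150). Cd68, the remaining 1 of the 3, differed by 0.83, 0.66, 0.92 and -0.17 cycles on P0 to P3. Its mean was 0.56 (0.05 to 1.07, limma adjusted p = 0.237), and it gave a product in 11 no-RT wells. Csf3r and Cd68, both on the myeloid list, thus differed in opposite directions. Of the other myeloid genes, Cebpa differed by -0.41 and Gfi1 by 0.17. Spi1 differed by 0.12 (-0.26 to 0.50), Kit by -0.06 (-0.41 to 0.30) and Cd34 by -0.02 (-0.49 to 0.46). Without centring, Csf3r stood at -0.16 and Fli1 at 0.83 (adjusted p = 0.771 and 0.175).

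Turned the other way, the level of Cd9 in its positive cells was compared between cells with and without 19 other genes, and 0 were called (1 with an unadjusted p under 0.05). With Ly6d the Cd9 level was 0.67 cycles higher (0.05 to 1.28, limma adjusted p = 0.246), at 1.30, 0.98, -0.19 and 0.57 on P0 to P3. With Csf3r it differed by -0.33 (-0.77 to 0.12), with Cebpa by -0.17 and with TCF3E2A by -0.26. Ebf1 and Fli1 gave 0.08 each. Without centring on the reference genes these values became 0.11 with Ly6d, 0.38 with Csf3r, 0.59 with Cebpa, 0.10 with TCF3E2A, -0.56 with Ebf1 and 0.66 with Fli1, none of them called.

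For Cd53, which nearly every cell had, the level was the way to set it against the other genes. Of 45 such contrasts, 0 were called and 2 had an unadjusted p under 0.05, those with Bst2 and Zfp521. In the stem list 3 members entered and all had means below 0, Zfp521 -0.47, Fli1 -0.11 and Hoxa9 -0.08, which without centring became -0.22, 0.28 and 0.55. The relative Cd53 level in cells with Zfp521 minus that in cells without was -0.20, -0.61, -0.65 and -0.43 cycles on P0 to P3, below 0 on each plate (interval -0.80 to -0.14, limma adjusted p = 0.148). Among 7 myeloid genes, 2 had means above 0 and the median was -0.06; Csf3r had 0.07 (-0.26 to 0.40), Gfi1 -0.06, Il6ra -0.18, Klf4 -0.09, Csf1r -0.01, Cebpa 0.10 and Cd68 -0.22. The 5 B genes had a median of -0.01, with Pax5 at 0.25, Ebf1 at 0.16, FOX01 at -0.01, Ly6d at -0.02 and TCF3E2A at -0.05. Pax5 was above 0 on all plates, at 0.27, 0.30, 0.28 and 0.12 cycles (-0.05 to 0.54, adjusted p = 0.357). Without centring, Pax5 stood at 0.03 (adjusted p = 0.946) and Ebf1 at -0.05 (adjusted p = 0.911). By detection of Cd9 the Cd53 level differed by 0.74, -0.37, -0.16 and 0.47 cycles, a mean of 0.17 (-0.36 to 0.70, adjusted p = 0.760). Over all 45 genes the median was -0.04, with 17 above 0 and 28 below, and without centring 0.16, with 34 above and 11 below; the median of all 2068 contrasts moved likewise, from -0.04 to 0.16.

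The contrast nearest the threshold was that with Bst2, a gene induced by interferon and high in plasmacytoid dendritic cells, which was named after its value was seen. Cd53 stood at -3.36, -3.53, -3.13 and -3.33 cycles in cells with Bst2 and at -2.84, -2.48, -2.49 and -2.50 in cells without. The plate means did not overlap, and the difference was -0.76 cycles (-1.10 to -0.42, limma adjusted p = 0.0515; 58 cells lacked Bst2). It was called with stricter quality control (-0.80, adjusted p = 0.049) and with at least 10 cells on each side (adjusted p = 0.0278). Without centring on the reference genes it was -0.16 (adjusted p = 0.669), and centred on the median of the 18 most common assays -0.51 (adjusted p = 0.183). Of the 18 assays in over 95% of cells, 16 had a difference below 0 by Bst2 with a median of -0.26. Among these 18, Cd53 had the lowest, and Spi1, at -0.75, was the 1 that was called (-0.15 without centring, not called). Among less common genes, FOX01 (-0.86), Fli1 (-0.86), Hhex (-0.84) and Cd180 (-0.77) were lower still, while Hoxa9 stood at 0.30. Fli1 and Cd180 were called as well (limma adjusted p = 0.0476 and 0.0491), so 3 genes were called by Bst2. The lower level was thus not particular to Cd53 and Spi1.

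**Figure D4:**
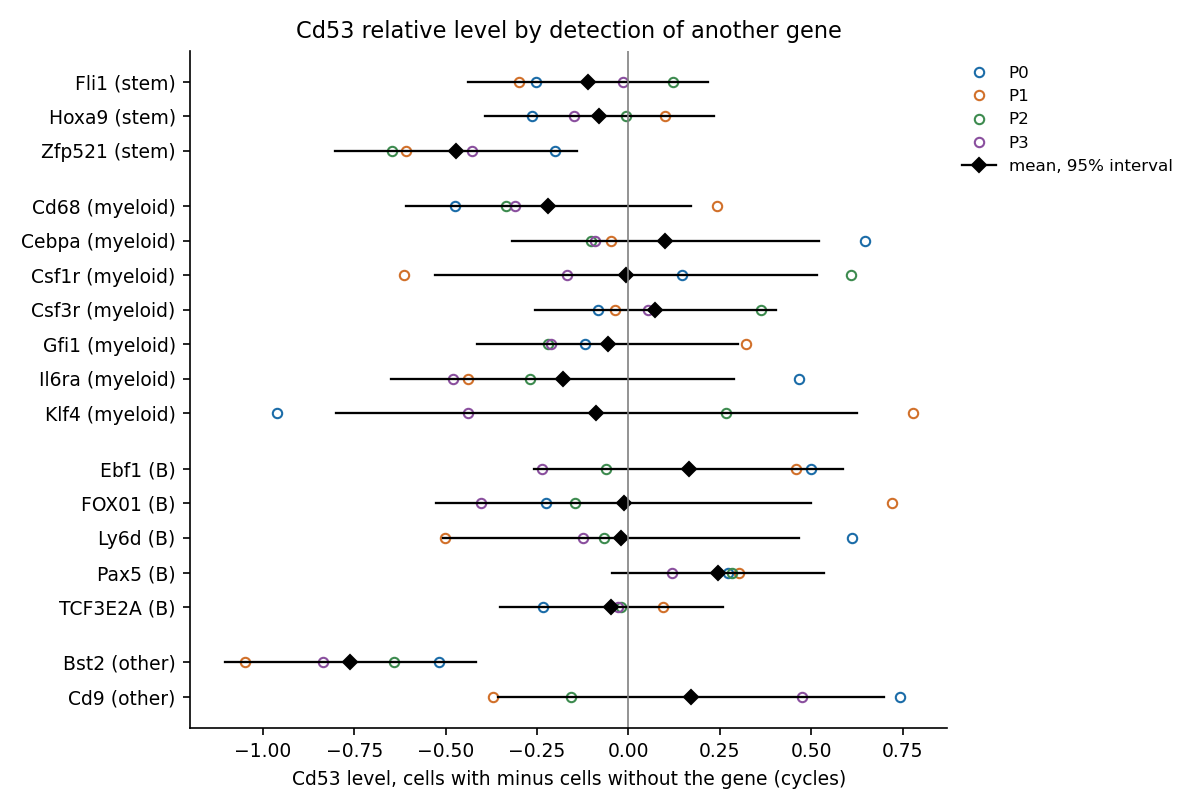
Difference in relative Cd53 level, in cycles, between cells with and without each gene; circles are the 4 plates, diamonds the means and lines the 95% limma intervals. The stem, myeloid and B genes lie within 0.5 cycles of 0 on average, with Bst2 at -0.76 and none past the adjusted threshold.

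Cells were last ordered by the B genes they had. The 62 cells with none of Ebf1, Ly6d and Pax5 had Cd9 in 37.5%, 27.3%, 47.6% and 21.4% on P0 to P3, and the 90 cells with Pax5 in 31.8%, 31.8%, 14.3% and 24.0%. The means were 33.5% ± 11.5 and 25.5% ± 8.32, and plates of both classes overlapped. The 66 cells with only Ebf1 or only Ly6d had 29.9% ± 4.61 and the cells with both but no Pax5 had 28.0% ± 6.66. The mean share of Cd9 was lower in each class with more B genes, by steps smaller than the SD over plates. The difference of Pax5 cells from cells with none was -7.97 percentage points (interval -33.3 to 10.4, exact two-sided permutation p = 0.314, 0.629 adjusted over 2 tests). Without P2 it was 0.48 points. The test took the plate values as unpaired, though both classes came from the same plates. With 4 plates against 4 it cannot go below 0.0286, and a paired test by sign flips cannot go below 0.125.

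The Cd53 level in the same classes was -3.18 ± 0.49, -3.42 ± 0.23, -3.23 ± 0.19 and -3.02 ± 0.14 cycles, from cells with none to cells with Pax5. The difference of the last from the first was 0.16 cycles (-0.39 to 1.06, exact two-sided permutation p = 0.743, adjusted 0.743), and -0.05 without P0. This test was unpaired as well. Cd53 was found in 97.7% to 98.5% of cells in every class.

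**Figure D5:**
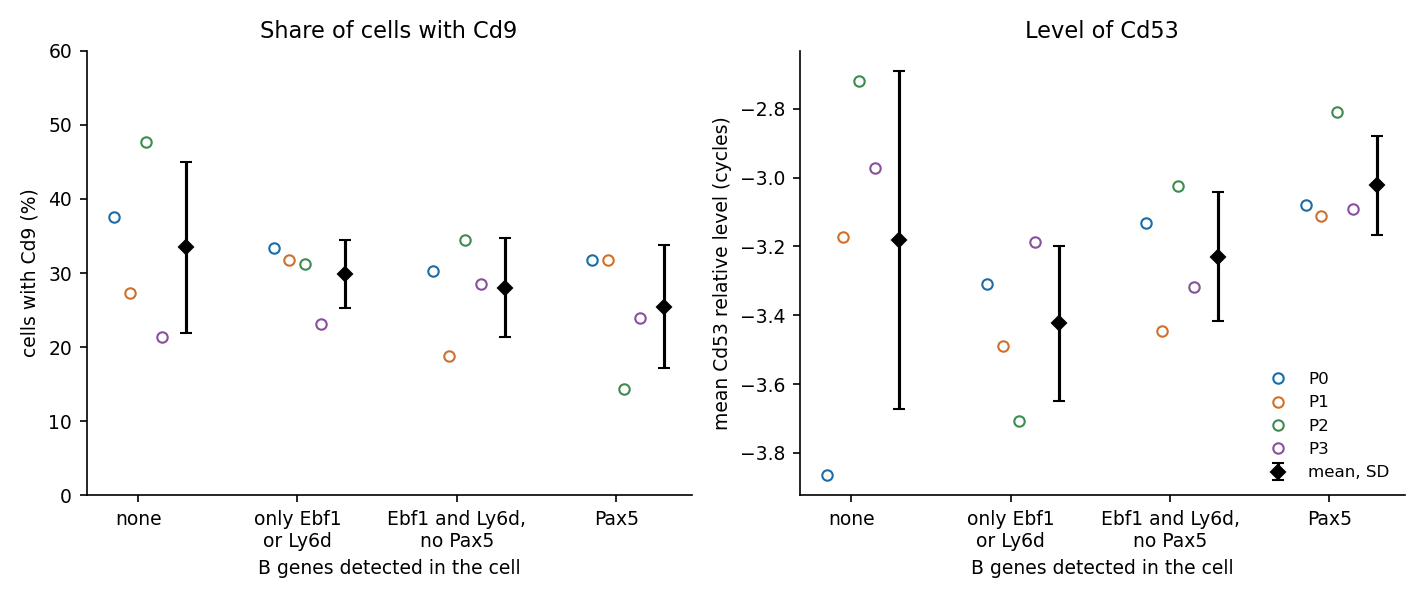
Share of cells with Cd9 in percent (left) and mean relative level of Cd53 in cycles (right) by the B genes detected in the cell; circles are plates, diamonds and bars mean and SD over 4 plates, and the right axis does not start at 0. Cd9 means run from 33.5% to 25.5% and Cd53 means from -3.42 to -3.02, with plates that overlap between the first and last class.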

How the data were processed

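Per the labels' protocols, sorted cells were frozen in lysis buffer, cDNA was made and pre-amplified in the same well with 96 TaqMan assays, and products were measured on a BioMark HD (Fluidigm); no-RT wells got Taq but no reverse transcriptase. The authors deposited Ct values without normalization. Ct software and threshold: not given in the sources used here. Of all values 58.2% were 40, and 0 columns were left unmapped. Of the assay names 47 matched a symbol and 34 a synonym in RefSeq, and 15 kept the name of the file. Pre-amplification multiplies every product, so a missing product means undetected at the sensitivity of that assay, which is unknown.

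A cell was kept with a product for more than 50% of the reference genes and at least 50% of the plate's median number of assays (347 of 360; Cd9 in 101, Cd53 in 341). Odds ratios took a pseudocount of 0.5, and level contrasts at least 5 cells on each side on each plate. Fits used limma 3.58.1 in R 4.3.3 on plate values with Benjamini-Hochberg adjustment over the whole family; permutation tests used scipy 1.17.1. The fits were tested on simulated data. Some genes of the panel, and results that need them, are not reported here. Members, lists and tests were chosen with earlier results of these data known. Genes named were all entered members of the stem, myeloid and B lists, up to 10 called genes a direction and the 5 most alike per gene. Bst2 and the levels by it, the T, dendritic and partner genes, Cd244a, Ly86 and Tnfsf8 were chosen after their values were seen. So were Csf3r, Fli1, Cd68, Cebpa and Gfi1 by Cd9. Plates pair the groups by label; deviations of no-RT wells and cells of a plate correlated between -0.19 and 0.05.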

Additional observations from a re-analysis of the deposited data

Results flagged for a closer look

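In the 10-cell wells, the Ct of Cd9 on P0 was 40, apart from the 3 other plates. The difference in Cd53 level by Cebpa was 0.65 cycles on P0, apart from values near -0.1 on the other plates, and that by Pax5 was 0.12 on P3, below the other 3. In cells with Pax5, the Cd53 level on P2 (-2.81) stood above the other plates. Of 53 groups of 4 plate values looked at, 4 had such a value, and chance gives about 1 in 20. Of the 13 single-cell wells left out, 1 on P3 had a product for Cd53, at Ct 18.92, and 0 for Cd9.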

How the results depend on the processing

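Of 711 values of pairs with Cd9 under the alternatives, 0 were called, and the lowest adjusted p was 0.102. Over the whole panel the pairs called positive, 35, became 67 with a pseudocount of 1, 62 with cells split by reference level, 23 with plates centred, 4 to 21 without a plate, and 20.3% of 1596 pairs without quality control; those called negative, 19, became 0 to 41. The Cd9 share ranged from 28.0% to 30.4%. Without quality control the Cd53 share was 95% and cells with Cd9 had 2.74 more other assays (adjusted p = 0.00622). The count of Cd53 level contrasts called lower was 1 in place of 0, always Bst2, with stricter quality control and with at least 10 cells on each side; leaving out P0, P1 or P2 left 0 level contrasts called on the panel. Without centring the panel's level contrasts called were 40 higher and 15 lower, in place of 36 and 27, and with medians per plate 18 and 14. Centred on the reference genes, Cd53 was -0.55 cycles with 20 against 10 cells and 0.49 with 10 cells against 10 times single cells, and leaving out plates gave 0.88 to 5.99 and -5.28 to -0.26. Cd9, centred in the same way, was 1.57 and -2.11 cycles. The cause of these shifts was not tested. Leaving out a plate gave a Cd9 share difference between Pax5 cells and cells with none of -12.1 to 0.48 points, and a Cd53 level difference, Pax5 cells minus cells with none, of -0.0497 to 0.252 cycles. With the plate as a replicate block no call for Cd9 or Cd53 changed (73 assays above no-RT wells in place of 74; Cd9 2.53 cycles with 20 against 10 cells, adjusted p = 0.416). Without P1, P2 or P3, too few wells were left for a Cd9 value in the pooled comparison. The alternative without the late wells, and all those of Spi1, were chosen after seeing the data. The pairs with Cd9 rest on 22 to 28 positive cells a plate.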
